A study of Mus musculus with 4 samples.

Results

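Integrins are the receptors by which smooth muscle cells (SMCs) hold the matrix of the vessel wall. The set examined here was 10 integrin genes, Itga1, Itga4, Itga5, Itga8, Itga9, Itgav, Itgb1, Itgb3, Itgb5 and Itgb8. Its members were found by matching these gene symbols to the gene names in the annotation of a list of PRDM6 ChIP peaks. Of the 10 genes, 7 had at least 1 assigned peak, against 20.0% of all protein-coding genes, and together they had 25 of the 13977 peaks of the list. Itgav and Itgb1 had 7 peaks each, Itga8 had 6, Itgb8 had 2, and Itga5, Itgb3 and Itgb5 had 1 each. Itga1, Itga4 and Itga9 had none.

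The peaks came from cultured primary outflow tract SMCs of late-gestation mouse embryos. Such SMCs form the muscle layer in the wall of the great vessels where they leave the heart. All 4 libraries, 2 of the PRDM6 ChIP group and 2 of the Input group, came from cells that carried a lentivirus expressing flag-Prdm6, that is PRDM6, a PR domain protein with zinc fingers, joined to an epitope tag, and the immunoprecipitation used an antibody against the tag. The peaks are therefore those of the tagged, overexpressed protein, and no library came from cells without it. The study describes the immunoprecipitations in one place as made from the same sample and in another as independent replicates, so their agreement may not cover differences between cultures. Input is chromatin sequenced without antibody enrichment, and it entered only through the authors' peak calls.

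Each integrin is a pair of an alpha and a beta chain that span the membrane, bind matrix outside the cell and link to the actin cytoskeleton inside it. The beta chain Itgb1 is shared by alpha chains of many receptors, among them those of Itga1, Itga4, Itga5, Itga8 and Itga9, whereas Itgav pairs with Itgb1, Itgb3, Itgb5 or Itgb8. Receptors that contain Itgav, Itga5 or Itga8 recognise the RGD (arginine-glycine-aspartate) sequence of ligands such as fibronectin and vitronectin, and those with Itgav and Itgb8 also bind and activate latent TGF-beta. Itga1 makes a collagen receptor, Itga4 a receptor for Vcam1 and fibronectin, and Itga9 a receptor for tenascin C and osteopontin. In SMCs such receptors serve adhesion to the matrix and the transmission of force.

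Sequence from 4 peaks is shown because 1 of them was the strongest at any of these genes and the others lay across the transcription start site (TSS) of their gene. The Itga5 peak also lay across a TSS, but its summit was inside exon 1, and it is shown further on by its motif sites only. Each window reaches 149 bp to both sides of the matched summit, the 1 point that the list gives for a peak. The summits of the replicates, the points of highest signal in each, can lie elsewhere. They were 682 bp apart at the Itgav upstream peak and 300 bp at the Itgb8 start peak, but 45 and 5 bp at the start peaks of Itgav and Itgb1. Where a transcript starts within a window, the window stops 1 base before the outermost such start in GENCODE or RefSeq. Capitals mark a consensus word for TEAD factors. All are from the GRCm38 reference (mm10) and read in the direction of the gene. The Itgav windows are chr2:83714508-83714806 and chr2:83724112-83724396 on the plus strand, the Itgb1 window is chr8:128685380-128685653 on the plus strand, and the Itgb8 window is chr12:119238803-119239074 on the minus strand.
Itgav upstream peak: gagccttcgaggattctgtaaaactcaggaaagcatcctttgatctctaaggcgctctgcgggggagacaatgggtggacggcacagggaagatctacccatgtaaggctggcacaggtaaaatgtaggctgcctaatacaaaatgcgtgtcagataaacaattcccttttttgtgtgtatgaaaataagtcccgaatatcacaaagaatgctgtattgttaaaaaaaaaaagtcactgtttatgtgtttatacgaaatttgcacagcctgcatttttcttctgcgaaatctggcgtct
Itgav start peak: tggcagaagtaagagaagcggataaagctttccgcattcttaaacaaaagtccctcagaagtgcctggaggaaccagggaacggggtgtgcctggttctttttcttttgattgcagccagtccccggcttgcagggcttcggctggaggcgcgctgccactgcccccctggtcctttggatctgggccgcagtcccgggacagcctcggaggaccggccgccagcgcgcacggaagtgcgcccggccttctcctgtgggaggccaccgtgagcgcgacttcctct
Itgb1 start peak: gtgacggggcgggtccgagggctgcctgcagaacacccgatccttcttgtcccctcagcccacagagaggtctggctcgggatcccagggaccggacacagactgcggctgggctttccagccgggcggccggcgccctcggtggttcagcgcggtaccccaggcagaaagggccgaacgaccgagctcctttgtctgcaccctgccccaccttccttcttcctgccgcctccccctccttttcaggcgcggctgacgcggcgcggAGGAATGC
Itgb8 start peak: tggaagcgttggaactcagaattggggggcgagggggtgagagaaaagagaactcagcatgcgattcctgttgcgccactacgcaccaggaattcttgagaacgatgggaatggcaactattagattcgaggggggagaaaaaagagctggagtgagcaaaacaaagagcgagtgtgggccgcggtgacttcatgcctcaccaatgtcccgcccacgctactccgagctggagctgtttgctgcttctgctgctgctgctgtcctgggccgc
The Itgav upstream window was 41.8% G or C with 9 CpG dinucleotides. The start windows had 62.5% and 20 CpG at Itgav, 69.0% and 24 at Itgb1, and 55.9% and 14 at Itgb8. The 69 bp of the Itga5 window that lay before the outermost start, that of RefSeq, had 66.7% and 3 CpG. In the Itgb1 start window the TEAD word was the last thing before the transcript start, and the other windows held no word of the motifs searched.

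The strength of a peak is its −log10 p-value from the peak caller, given for both immunoprecipitations, which the list names only by order, here as the first-listed replicate and the second-listed one. The value of the matched peak is the smaller of the pair. In the list as a whole its median was 5.53, and the medians of the replicates were 6.92 and 6.61. How likely a peak is not to be reproducible was estimated by the irreproducible discovery rate (IDR), which compares its rank in the replicates, and the list was deposited without a limit on it. The list held no read totals. Its p-values showed that 58.3% and 63.5% of peaks rested on a flat background with a mean of 2.61 and 2.39 fragments, and in those the median height was 14 and 13 fragments. The annotation gives each peak 1 gene and the distance to 1 of its transcript starts, so an assigned peak can lie far outside its gene, and a peak inside a gene can be given to a neighbour.

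Itgav encodes the alpha chain that all of the vitronectin-type receptors share, and it had the strongest peak of the set. This peak, at chr2:83713716-83715193, was 1478 bp wide and ended 9204 bp upstream of the TSS, between genes. Its −log10 p was 16.9 in the first-listed and 13.7 in the second-listed replicate, and it stood in place 218 of 13977. It was high in both immunoprecipitations and had a global IDR of 0.0166, the only value of at most 0.05 among the 25 peaks. The TSS of the next coding gene, Zc3h15, was 70.2 kb away. In the second-listed replicate the peak was 21 fragments high, the highest read back for any of these genes, and in the first-listed replicate the height could not be recovered. Its summits in the replicates lay 682 bp apart, the widest gap of the set.

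A second Itgav peak, at chr2:83723940-83724541, covered the TSS with its summit 136 bp upstream. Its −log10 p was 10.2 in the first-listed and 7.14 in the second-listed replicate, its global IDR was 0.331, and the summits of the replicates were 45 bp apart. Another peak just inside the gene, at chr2:83724856-83725068, was weaker, with 5.00 and 3.68. Of the other 4 Itgav peaks, 3 lay in intron 1, with summits 5115, 9333 and 9829 bp from the TSS. Their matched −log10 p values were 3.41, 4.39 and 5.42, all with a global IDR of 0.759, the highest of the list. The last peak, at chr2:83759580-83761152, was the widest of the set at 1573 bp and lay in intron 4 of the longest transcript, although the authors' annotation calls it exonic in another transcript. It had 10.2 and 7.14 and a global IDR of 0.331, values like those of the TSS peak. Itgav thus held strong peaks at 3 separate places and 4 weak ones in intron 1.

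Itgb1 encodes the common beta chain. Its peaks ran from well upstream of the TSS into intron 1. The strongest, at chr8:128653557-128654773, had a −log10 p of 13.1 in the first-listed and 8.25 in the second-listed replicate and a global IDR of 0.166, and it overlapped the exon of Gm45746, a gene model of undetermined type, 30881 bp upstream. The next peak inward, 22762 bp upstream, had 10.2 and 4.39, so the replicates were further apart there than at any other Itgb1 peak. The peak 12358 bp upstream had 6.92 and 5.32. The next coding TSS, that of Gm3952, was 126 to 144 kb from these 3 peaks.

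At the Itgb1 promoter there were 2 peaks. One, at chr8:128685079-128686341, was 1263 bp wide and covered the TSS. Its −log10 p was 8.52 and 5.84, its heights were 16 and 12 fragments, and its summits in the replicates were only 5 bp apart, 125 bp upstream of the TSS. The other, at chr8:128684555-128684889, ended 765 bp upstream and had 5.42 and 5.10. Inside the gene the peaks lay in intron 1 with summits 5255 and 19143 bp from the TSS, with matched values of 5.84 and 4.39. In contrast to Itgav, no peak of Itgb1 reached a global IDR of 0.05, and its values from the second-listed replicate ran only from 4.39 to 8.25.

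The beta chains Itgb3, Itgb5 and Itgb8, which pair with Itgav, had 1 or 2 peaks each. Itgb8, whose receptor activates latent TGF-beta, had a peak over its TSS at chr12:119238648-119239126, with a −log10 p of 4.93 in the first-listed and 5.84 in the second-listed replicate. Its matched summit lay 123 bp upstream of the start, but the summits of the replicates were 300 bp apart. The other Itgb8 peak, at chr12:119138088-119138233, was only 146 bp wide and lay 19867 bp beyond the 3′ end of the gene, with 5.42 and 4.39. Both had the lowest score of the list, so both Itgb8 peaks stood among the least reproducible matches.

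Itgb3, the beta chain of the classical vitronectin receptor, had a single peak in intron 1 at chr11:104611517-104611842, 3517 bp from the TSS. It was weak in the second-listed replicate, with a −log10 p of 6.15 in the first-listed and 3.68 in the second-listed. Itgb5, another partner of Itgav, had a peak at chr16:33892113-33892591 with more even values of 6.84 and 6.61 and a global IDR of 0.457. The authors' annotation places this peak at a promoter, 166 bp from the start of a short transcript, but it lay 62686 bp into the gene, in intron 5 of the longest transcript. Neither Itgb3 nor Itgb5 had a peak at its main start.

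Itga5 is the alpha chain of the fibronectin receptor. Its only peak, at chr15:103366394-103366922, covered the TSS and had the highest matched value of the start peaks, although in the first-listed replicate those of Itgav and Itgb1 were higher. Its −log10 p was 8.01 in the first-listed and 13.7 in the second-listed replicate, and its global IDR was 0.229. The summits of the replicates were 10 bp apart, and the matched summit lay 52 bp inside exon 1. At 22478 bp Itga5 was the shortest gene of the set, and this 1 peak stood in place 2176 of the list.

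Itga8 encodes an alpha chain that is abundant in vascular smooth muscle and pairs with Itgb1. It had 6 peaks and none near its start. The strongest, at chr2:12212481-12213938, lay in intron 13, 88631 bp into the gene. It had a −log10 p of 12.03 in the first-listed and 9.10 in the second-listed replicate, heights of 20 and 16 fragments and a global IDR of 0.138. The other 5 Itga8 peaks lay beyond the 3′ end of the gene, at distances from 16046 to 74393 bp. Their values ran from 4.32 to 7.71 in the first-listed and from 4.82 to 10.9 in the second-listed replicate. The farthest of them, at chr2:12032153-12032521, had the most unequal pair, 4.71 and 10.9. The next coding TSS, that of Ankrd16, was 254 to 313 kb from these peaks. The annotation measured them from a start inside Itga8, 41132 to 100031 bp away, whereas their summits lay 211336 to 269683 bp from the start of the longest transcript. For the farthest peak the Ankrd16 start was thus the nearer of the pair, and the assignment to Itga8 rests on distance alone.

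**Figure D1:**
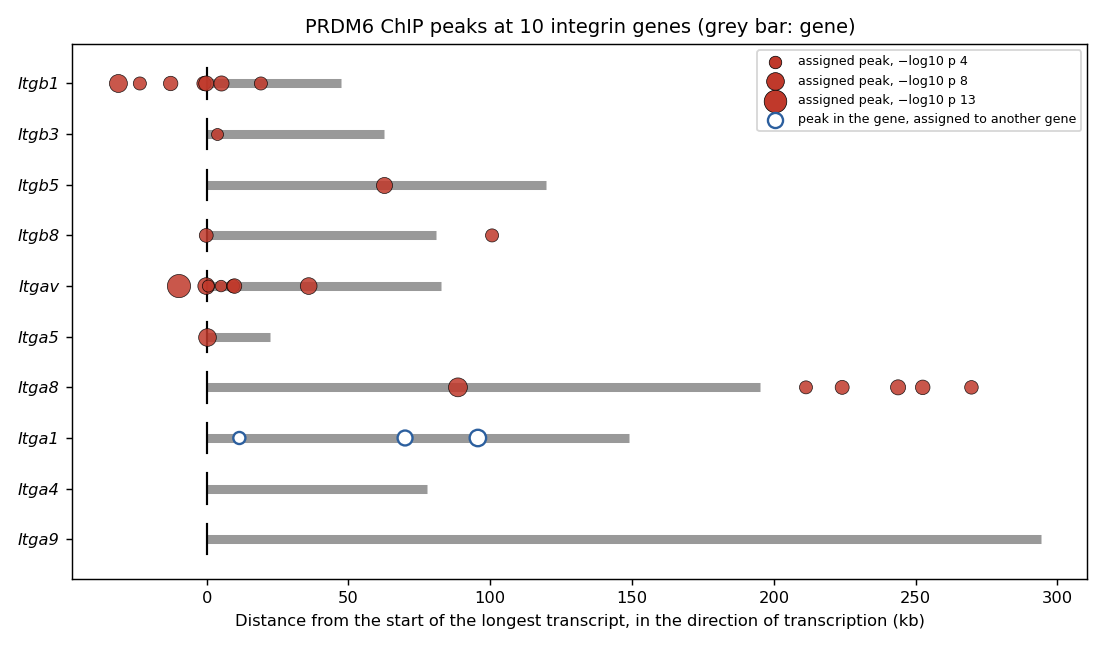
Map of the 10 integrin genes, 1 row each, with the distance from the start of the longest transcript in kb on the horizontal axis (grey bar, gene; black tick, start; filled circle, assigned peak; open circle, peak in the gene assigned to another gene; area of a circle in proportion to its matched −log10 p). Itgav and Itgb1 have peaks on both sides of the start, 5 of the 6 Itga8 peaks lie beyond the gene's end, and Itga4 and Itga9 have none.

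The 3 genes without an assigned peak were not alike. Itga1 had 3 peaks inside it, which the annotation gave to neighbours. One, at chr13:115005539-115006746 in intron 9, was assigned to Itga2, the gene of another collagen receptor chain, at a distance of 73439 bp. Its −log10 p was 6.92 in the first-listed and 7.14 in the second-listed replicate, so it was at the median of the list in the first and above it in the second. Another, at chr13:115031527-115032099 in intron 3, had 5.69 and 8.25, and the last, at chr13:115090320-115090659 in intron 1, had 4.04 and 3.73. Both were assigned to Pelo, a gene that starts within Itga1, and the last lay 134 bp from the Pelo start. Of 3093 protein-coding genes with a peak inside them, 283 (9.15%) likewise had no assigned peak. Itga4 and Itga9 had no peak inside or within 10 kb, and the nearest peaks were 178 kb and 135 kb from the genes. At 294314 bp Itga9 was the longest gene of the set. The 7 genes with assigned peaks all encode chains of RGD-binding receptors, and Itga1, Itga4 and Itga9 do not belong to that class. This grouping was made after the values were seen and was given no test. Itgb1 also serves the receptors of these 3 chains, and the grouping rests on assignment, since Itga1 had 3 peaks inside it. Integrins outside the set followed it only in part. Against it, Itga2b, whose receptor binds RGD, had 0 peaks and Itga11, Itga2 and Itga6, whose receptors do not, had 5, 1 and 1. With it, Itgb6, whose receptor binds RGD, had 2 peaks and the remaining subunits, whose receptors do not, had none.

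The share of integrin genes with an assigned peak was 70% (95% Wilson interval 39.7% to 89.2%), beside 20.0% of the 21911 protein-coding genes. Intervals here cover counting error only. The integrin genes are longer than most, from 22478 to 294314 bp, and 31.8% of the 8861 coding genes in that range of length had a peak. With peaks counted inside the gene in place of assigned peaks, 8 of the 10 had one, against 14.1% of coding genes and 25.2% of those in the same range of length. Itga1 was the gene added by this count. A total of 6 or more assigned peaks was found for 3 integrin genes (Itgav, Itgb1 and Itga8) and for 2.23% of coding genes. An assigned peak whose global IDR was 0.05 or less was found for 1 (Itgav) and for 1.63% of coding genes.

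Per 100 kb of gene, Itgav had 7.27 peaks inside it, Itgb1 6.31, Itga5 4.45 and Itga1 2.02. Itgb3 with 1.60, Itgb8 with 1.24, Itgb5 with 0.836 and Itga8 with 0.512 followed. The 10 genes together held 17 peaks in 1.13 Mb, or 1.50 per 100 kb, beside 0.685 over all coding genes and 0.770 over those in the same range of length. Itgav and Itgb1 were thus the densest, and Itga8, with 6 assigned peaks but 1 inside the gene, was below the density of coding genes.

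**Figure D2:**
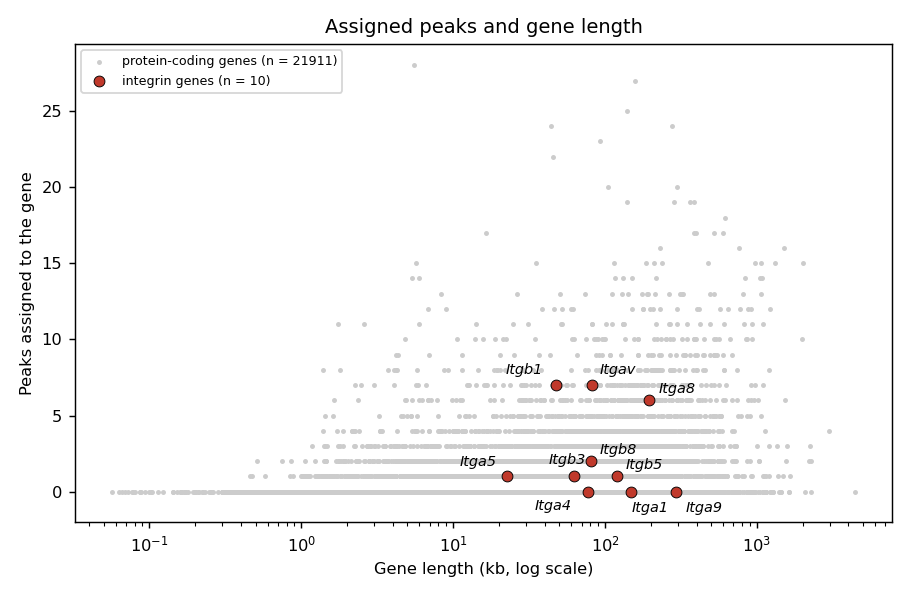
Number of assigned peaks (vertical axis) against gene length in kb (horizontal axis, log scale) for 21911 protein-coding genes (grey points) and the 10 integrin genes (red points, named). Itgav and Itgb1 with 7 peaks and Itga8 with 6 stand apart from the other integrin genes, which have 0 to 2 at similar lengths.

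Across the 25 peaks the median matched −log10 p was 5.32, with a range from 3.41 (Itgav, intron 1) to 13.7 (Itgav, upstream), so the integrin peaks were of about the strength of the list, whose median was 5.53. Their medians were 6.15 in the first-listed and 5.84 in the second-listed replicate, both below those of the list. Of the 25 peaks, 10 (40%) were at or above the median of the list, and 14 (56%, 37.1% to 73.3%) had its lowest score, as 41.4% of all peaks did. Only the Itgav upstream peak (4%) had a global IDR of at most 0.05, beside 3.33% of all peaks. At this limit the share of peaks was close to that of the list. In 17 of the 25 (68%, 48.4% to 82.8%) the second-listed replicate had the smaller value, beside 52.1% of all peaks. Both replicates were above 8 at 4 peaks only, 1 each of Itgav, Itgb1, Itga8 and Itga5. Heights could be read back for 16 of the 25 peaks in the first-listed replicate, at 9 to 20 fragments with a median of 13, and for 15 in the second-listed, at 10 to 21 with a median of 12. Heights of this size set the precision of the values above.

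**Figure D3:**
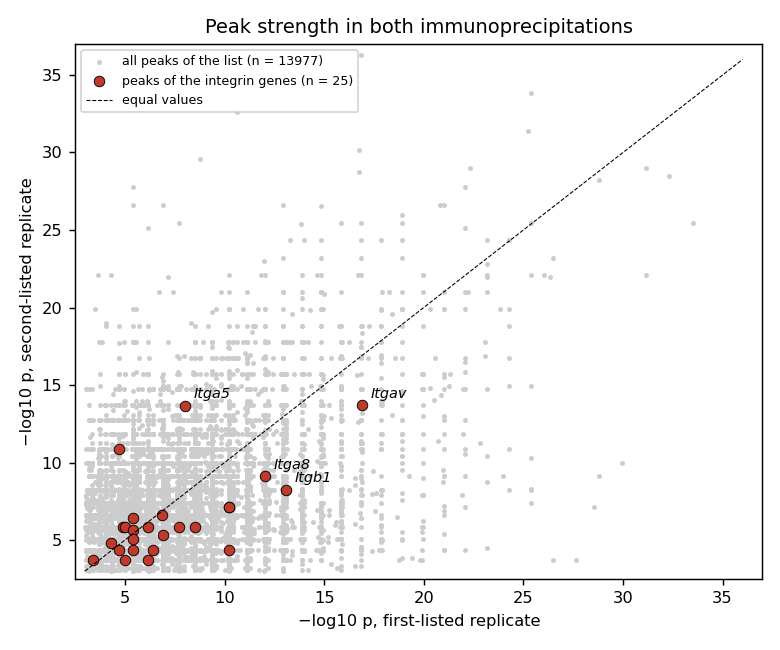
The −log10 p-value in the second-listed replicate (vertical axis) against that in the first-listed replicate (horizontal axis) for all 13977 peaks (grey) and the 25 integrin peaks (red); the dashed line marks equal values and the gene is named where the smaller value is above 8. The Itgav upstream peak lies farthest out among the integrin peaks, at 16.9 and 13.7, and most of the others lie between 3 and 9 on both axes.

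By the authors' annotation 7 of the 25 peaks (28%, 14.3% to 47.6%) were at promoters, 7 (28%) in introns, 2 (8%) in exons and 9 (36%, 20.2% to 55.5%) between genes. In the whole list these shares were 21.3%, 35.9%, 4.10% and 37.2%, and each lay within the interval of the integrin peaks. Peaks across an assigned TSS were 4 of 25 (16%, 6.40% to 34.7%), those of Itga5, Itgav, Itgb1 and Itgb8, against 6.64% of all peaks. By gene these were 4 of 10, and 3.50% of coding genes had such a peak. In 3 of the 4, at Itgav, Itgb1 and Itgb8, the matched summit lay between 123 and 136 bp upstream of the start, and at Itga5 it lay inside exon 1. The summits of the replicates were 5 to 45 bp apart at Itgav, Itgb1 and Itga5 but 300 bp apart at Itgb8, so its position is not resolved there. RefSeq gives promoters, from 250 bases before to 50 after a start, for 9 of the genes, all but Itgb3. A peak overlapped 3 of these, at Itga5, Itgav and Itgb1, beside 2.75% of the 32851 promoters of all genes. The RefSeq promoter of Itgb8 lies at another start, chr12:119238227-119238526, which its peak did not reach.

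The promoters of the set were rich in G and C. The 9 RefSeq promoters had a median of 60.7% (56.7% to 67.3%) beside 52.7% over all promoters, and a median of 13 CpG beside 7. The promoters a peak overlapped had 67.3% at Itgav and Itgb1 and 58.7% at Itga5. Those without one had 65.7% at Itgb5, 64.3% at Itga4, 60.7% at Itgb8, 59.0% at Itga8 and 56.7% at Itga1 and Itga9. The 7 promoter peaks of the integrin genes had a median of 62.5% G or C and those of the list 48.4%. All 7 were annotated within 1 kb of a start and 4 lay across it, whereas the promoter peaks of the list were taken without such a limit. Intron peaks were close to the list with 43.4% beside 42.6%, and intergenic peaks with 41.5% beside 42.2%. The median over all 25 peaks was 43.8% beside 43.2%.

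Words bound by 3 kinds of transcription factor were looked for on both strands near the matched summit. For AP-1 the words were TGACTCA and TGAGTCA, which are each other's reverse complement, and for TEAD they were AGGAATGC, AGGAATGT, GGGAATGC and GGGAATGT. For SRF, the factor that acts with myocardin on many SMC genes, the CArG box was used. Within 100 bp of the summit an AP-1 word was found at 0 of the 25 peaks, beside 14.3% of all peaks. A count of 0 allows a share of up to 12% (3 counts of 25), and the upper Wilson limit was 13.3%. A TEAD word was found at 2 (8%, 2.22% to 24.97%), the Itga5 start peak and the farthest Itga8 peak, beside 7.45% of all peaks. The CArG box was at 0 of 25 and 1.41% of all peaks. Within 250 bp an AP-1 word was found at 6 peaks (24%), of Itga5, Itga8, Itgav and Itgb1, beside 30.7% of all peaks. Around the summits of the first-listed replicate 4 peaks (16%) had one within 100 bp, beside 13.3% of all peaks, and around those of the second-listed replicate 2 (8%), beside 12.3%. The count of 0 therefore held for the matched summits only.

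Every word that lay inside an integrin peak and within 250 bp of its summit is shown with its neighbouring bases, in capitals, in the direction of the gene (GRCm38). They were 5 AP-1 words, 3 TEAD words and 1 CArG box.
Itga5 TEAD, chr15:103366659-103366688, minus strand: ccccgggacccAGGAATGCccccccgccag
Itga5 AP-1, chr15:103366583-103366611, minus strand: cctccccgcgtTGAGTCAttcgcctctgg
Itgb1 TEAD, chr8:128685635-128685664, plus strand: acgcggcgcggAGGAATGCgtttccggagg
Itgb1 CArG box, chr8:128684813-128684842, plus strand: aagatcaataCCTTTAAAGGcaacgaacgt
Itgb1 AP-1, chr8:128690744-128690772, plus strand: cgtcagtgtacTGAGTCAttgccactgca
Itgb1 AP-1, chr8:128704939-128704967, plus strand: cacagaaaaaaTGAGTCAgaaccttgaat
Itgav AP-1, chr2:83760253-83760281, plus strand: attccttggtgTGACTCActagacactgg
Itga8 TEAD, chr2:12032320-12032349, minus strand: tgtaatttcctGCATTCCCtcctttggttc
Itga8 AP-1, chr2:12077674-12077702, minus strand: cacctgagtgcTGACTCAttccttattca
The Itga5 start peak held both an AP-1 and a TEAD word, 114 and 38 bp from its summit and both downstream of the start of the gene. The Itgb1 start peak had its TEAD word 120 bp from the summit, immediately before the start, and the same TEAD word occurs at Itga5. The CArG box belonged to the Itgb1 peak 765 bp upstream and lay 114 bp from its summit. Both Itgb1 peaks in intron 1 held an AP-1 word, 151 and 156 bp from the summit, as did the wide Itgav peak in intron 4 at 123 bp. Both of these Itgb1 peaks also had a TEAD word within 250 bp of the summit, 192 and 240 bp from it and outside the peak. The Itgav upstream peak, the strongest of the set, held none of these words within 250 bp of its matched summit. That search did not cover all of its 1478 bp, and the summits of the replicates lay 682 bp apart there. Among the 9 RefSeq promoters an AP-1 word was found at 1 (Itga9, which had no peak) and a TEAD word at 1 (Itgb1), beside 5.20% and 4.23% of all promoters. The CArG box was found at 0 of the 9 and 1.63% of all promoters. A match describes these letters only and is not a measured binding site.

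The integrin genes were then set beside genes that act with them. Of the 16 other integrin subunits 4 had an assigned peak (25%, 10.2% to 49.5%), Itga11 with 5, Itgb6 with 2, and Itga2 and Itga6 with 1 each. The strongest of the 5 peaks of Itga11, a collagen receptor chain of mesenchymal cells, had a −log10 p of 11.4 and lay 50209 bp from its TSS. The 12 without a peak included the leukocyte chains Itgal, Itgam, Itgax and Itgb2, the platelet chain Itga2b, and Itga7 and Itga3, which bind laminin. The median length of all 16 was 37.2 kb, against 81.7 kb for the 10 integrin genes of the vessel wall, so the lists differ in length as well.

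Inside the cell, integrins join talin, kindlin, vinculin and the kinases of the adhesion plaque. Of 28 such genes 10 had a peak (35.7%, 20.7% to 54.2%), with 54 peaks in all. Parva, which joins integrin-linked kinase to actin, had 10, the tensin Tns3 9, vinculin (Vcl) 8, and Lims1, a partner of integrin-linked kinase, 6. Fermt2, the kindlin that binds beta chain tails, had 4 peaks, 2 of them across a TSS, and focal adhesion kinase (Ptk2) had 4. The actin crosslinker Actn4 had the strongest peak among these 28 genes, with a −log10 p of 13.9 and a global IDR of 0.0275. Talin 1 (Tln1), Ilk, paxillin (Pxn) and Src had none.

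Outside the cell, 11 of 16 genes of integrin ligands had a peak (68.8%, 44.4% to 85.8%), with 46 peaks. Tenascin C (Tnc), a ligand of Itga9 receptors, had 9, Ccn1 and periostin (Postn) had 7 each, and osteopontin (Spp1) had 6. The lowest global IDR of the Tnc peaks was 0.0437. The strongest Spp1 peak had a −log10 p of 13.5 and a global IDR of 0.0219 and lay 26395 bp from its TSS. Vcam1, the ligand of Itga4 receptors, had 4. Thus Itga4 and Itga9 had no peak whereas genes of ligands of their receptors did. Fibronectin (Fn1) and Ccn2 had no assigned peak, but a peak covered the start of each and was given in the annotation to Apol7d and to Gm15270. At Fn1 it had a −log10 p of 13.9 in the first-listed and 8.27 in the second-listed replicate, and at Ccn2 4.71 and 14.9. A median of 2 peaks a gene was found for the ligands and of 1 for the 10 integrin genes. The lists were small and the intervals of all 4 overlapped.

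**Figure D4:**
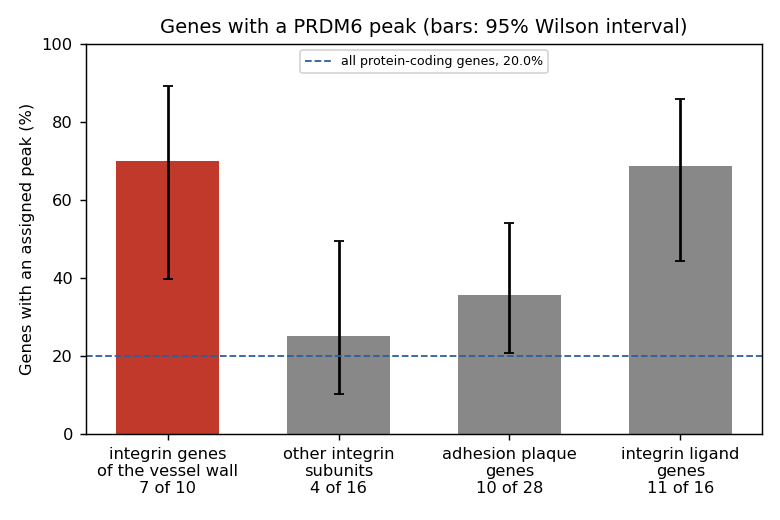
Share of genes with at least 1 assigned peak, in percent, for the 10 integrin genes of the vessel wall (red) and the lists of other integrin subunits, adhesion plaque genes and integrin ligand genes (grey); bars are shares, error bars are 95% Wilson intervals and the dashed line is the share of all protein-coding genes, 20.0%. The integrin genes of the vessel wall (70%) and the ligands (68.8%) have the highest shares.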

How the data were processed

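ChIP-seq was performed on 2 PRDM6 ChIP libraries and 2 Input libraries. The authors aligned paired reads to mm10 with BWA, called peaks in each ChIP library against its input with MACS2 (p below 0.001) and matched the replicates by IDR. The deposited −log10 p-values are MACS2 output, 1 for each replicate and the smaller for the match. The deposited score is a scaled global IDR, 540 at 0.05 and 830 at 0.01, and a −log10 IDR stood beside it. Signal and q-value columns held placeholders. The tool that annotated the peaks is not given in the sources used here. Peaks were taken to the members by gene symbol. Gene models were GENCODE M21 (basic set), and sequence and promoters RefSeq, GRCm38.p6. Heights were read from p-values lying within 0.0002 of a Poisson tail, a search tested on simulated data. Because both immunoprecipitations gave 1 matched list, there were no groups to compare and no test was run. By the naming rule every member is named with its strongest and nearest peak. The members and lists were chosen with earlier results of these data known. Depth per sample is unknown, since no read totals were used. Software was pysam 0.24.0, matplotlib 3.10.9, SciPy 1.17.1, pandas 2.3.3, NumPy 2.4.6 and Python 3.11.15. Alternatives covered IDR limits, peak strength, distance, gene bodies, merging, motif windows and each replicate alone. The width of the printed windows was set after motif positions were seen.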

Additional observations from a re-analysis of the deposited data

How the results depend on the processing

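Of 34 alternatives, 20 left the counts, shares and medians of the integrin genes within the limits used and 14 moved them. With a global IDR of at most 0.05, 1 gene and 1 peak remained (Itgav, −log10 p 13.7), with 0% of peaks in introns and 0 genes with a peak inside. At 0.01 there were 0 genes, 0 peaks and 0 with a peak inside, so medians and shares could not be given. Among peaks at or above the median of the list there were 10, with a median of 7.14. With 1 replicate left out the median was 5.84 to 6.15, above the matched 5.32 because the matched value is the smaller of each pair. The AP-1 share rose from 0% to 24% within 250 bp, and to 8% to 16% when the summit of 1 replicate was used. Within 100 kb of the start to which the annotation assigned them, which need not be the main start of the gene, 23 peaks of all 7 genes were kept, and 22 were left after peaks less than 1 kb apart were merged. No paired analysis was possible because the results come from no test. The main limits are the few fragments behind each peak, the IDR above 0.05 of all but 1 of the 25 peaks, and assignment by distance.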

Other observations

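At Fbn1, the gene of fibrillin 1 and a ligand of Itgav receptors, 7 peaks lay inside the gene, and 5 peaks inside it had been given to the neighbouring gene Dut. Of these, 2 passed an IDR limit of 0.05, with 0.0407 and 0.0282, and had a −log10 p of 12.03 in the first-listed replicate for both and of 14.7 and 18.8 in the second-listed.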
